A study of Mus musculus with 27 samples.

Results

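The fibroblast-only H3K27me3 regions are stretches of the mouse genome that carried H3K27me3 in fibroblasts of both Utx genotypes and had no H3K27me3 peak in embryonic stem cells (ESC). A region was taken from the H3K27me3 peak list of untreated wild-type mouse embryonic fibroblasts (WT MEF) if it shared at least 1 bp with an H3K27me3 peak of Utx-KO MEF, untreated or given doxycycline (dox), and with none of Utx-KO ESC or WT ESC. The regions were thus chosen by the positions of H3K27me3 peaks in 5 lists, and H3K4me3 and UTX played no part. This left 349 of the 4760 WT MEF peaks. A further 2199 peaks met a Utx-KO fibroblast peak and also an ESC peak and are called ES-shared regions, and 2212 met no Utx-KO fibroblast peak. The 19 peak lists of the series held 234651 peaks in all.

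H3K27me3, trimethylation of lysine 27 of histone H3, is laid down by the Polycomb repressive complex PRC2 and marks silenced genes, among them developmental regulators that are off in the cell type at hand. H3K4me3, trimethylation of lysine 4, is found at promoters that are active or poised for activity. In ESC many developmental promoters carry both marks at once and are called bivalent. UTX, the product of the X-linked gene Utx, removes methyl groups from H3K27, and the series asked how it acts when fibroblasts are turned back to pluripotency.

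The fibroblasts came from the strain V19-OSKM and were Utx-/Y (Utx-KO) or Utx+/Y (WT). Dox switched on the reprogramming factors Oct4, Sox2, Klf4 and c-Myc, and untreated fibroblasts of each genotype were the other arm. The sources used here give neither the dose nor the length of dox treatment. ESC of the line V6.5 were Utx-/Y or Utx+/Y. The 2 induced pluripotent stem (iPS) clones were Utx-/Y V19-OSKM cells that the submitters called aberrant because their reprogramming was improper. All fibroblasts, with or without dox, were grown in 2i/LIF, a medium used for naive pluripotent cells, as were the ESC, so no fibroblast library stood for fibroblasts in ordinary medium. Chromatin immunoprecipitation and sequencing gave 8 peak lists of H3K27me3, 8 of H3K4me3 and 3 of UTX. Each state and mark had 1 library, with the iPS state represented by its 2 clones, and no difference between states has a replicate check. Labelled cell types could not be checked against marker genes, since no peak was assigned to a gene.

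Read depth was unknown, so the length of a list was the only sign of its sensitivity. The H3K4me3 lists held from 16157 peaks in dox-treated Utx-KO MEF to 28232 in iPS clone 2, but their peaks differed in width. They covered 34.9 Mb in iPS clone 1, 55.5 Mb in clone 2, 43.3 Mb in Utx-KO ESC, 46.1 Mb in WT ESC, 52.8 Mb in dox-treated Utx-KO MEF and 52.0 Mb in dox-treated WT MEF, against 22.3 Mb in untreated Utx-KO MEF and 23.6 Mb in untreated WT MEF. Wider peaks meet more regions by 1 bp, so comparisons with untreated fibroblasts are also given for peak centres within 500 bp of a region. The H3K27me3 lists differed more in length, with 36231 peaks over 79.8 Mb in Utx-KO ESC, 5679 over 6.20 Mb in WT ESC, 4335 in dox-treated Utx-KO MEF, 938 in dox-treated WT MEF, 5708 in Utx-KO MEF, 135 in iPS clone 1 and 737 in iPS clone 2. The absence of an ESC peak, which the choice of regions required, was therefore judged from lists of very unequal length. Each library pooled many cells, so a mark held weakly by all cells and one held by some of them cannot be told apart, nor can a pair of marks in 1 state be placed in the same cell. Throughout, a region "carried" a mark in a list if it met a peak of that list by at least 1 bp. Shares are given with 95% Wilson intervals, which cover counting error over regions only, and neighbouring regions are not independent.

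The following values describe the choice and were not tested. The fibroblast-only regions had a median width of 887 bp (297 to 3671 bp) and covered 365.6 kb. Their score, the authors' deposited measure of peak confidence, had a median of 163 (52.3 to 2289), against a median of 179 in ES-shared regions. Of the 349, 122 met peaks of both Utx-KO fibroblast lists, 101 only of dox-treated Utx-KO MEF and 126 only of untreated Utx-KO MEF. Where a region met a peak, its score had a median of 131 in dox-treated Utx-KO MEF and 178 in untreated Utx-KO MEF. At the edge of the rule, 7 regions met their Utx-KO fibroblast peak by under 50 bp, the least by 4 bp, and 7 lay within 50 bp of an ESC peak, the nearest at 4 bp. Just outside it, 3 ES-shared regions met their ESC peak by under 50 bp, and 8 of the 1288 WT MEF peaks with neither an ESC nor a Utx-KO fibroblast peak lay within 50 bp of one in Utx-KO fibroblasts.

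The regions lay on all 19 numbered chromosomes and X, with the most on chromosome 6 (34, or 9.74%, against 5.55% of all WT MEF H3K27me3 peaks) and chromosome 4 (31, or 8.88%, against 6.91%). Chromosomes 1 and 2 held 29 each, or 8.31%, against 6.28% of all peaks on chromosome 1 and 11.3% on chromosome 2, and X held 5. Joined at gaps of up to 5 kb they formed 237 domains, of which 188 were a single region, 40 had 2 to 4 regions and 9 had 5 or more, up to 18. "No ESC peak" did not mean far from one: 165 regions (47.3%) had ESC H3K27me3 within 5 kb and 42 of these had it on both sides.

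Before the comparisons, 7 regions need to be set apart. They were the only ones with a UTX peak in untreated WT MEF (2.01%, against 0.189% of all WT MEF H3K27me3 peaks), and all 7 carried H3K4me3 in both untreated fibroblast lists and in neither dox list nor WT ESC. Of these, 3 lay on chromosome 2 from 98502155 to 98503369, 98503626 to 98504481 and 98506161 to 98507724. The others were on chromosome 6 from 103598825 to 103599479 and on chromosome 9 from 3021847 to 3023806, 3024543 to 3026107 and 35112373 to 35113344. UTX was also listed at 6 of the 7 in WT ESC, and H3K27me3 at 4 of the 7 in iPS clone 2. The region from 98506161 had the highest score of all 349, 2289 in WT MEF and 2402 in Utx-KO MEF, and also had peaks of H3K4me3 in Utx-KO ESC (365), iPS clone 1 (1417), Utx-KO MEF (1935) and WT MEF (917), and of UTX in WT ESC (241) and WT MEF (320). Peaks of antibodies against opposed marks thus coincided in these regions. Whether reads map reliably there was not tested. The results they move most are also given without them.

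Many of the fibroblast-only regions carried H3K4me3 in ESC. In Utx-KO ESC the mark was found at 151 of 349 regions (43.3%, interval 38.2 to 48.5), against a background of 24.7% of all WT MEF H3K27me3 peaks. WT ESC had it at 166 (47.6%, 42.4 to 52.8), against a background of 24.9%. In untreated fibroblasts it was present at 32 regions in Utx-KO MEF (9.17%, 6.57 to 12.7; background 4.43%) and at 36 in WT MEF (10.3%, 7.54 to 14.0; background 5.42%), or 7.31% in Utx-KO MEF and 8.48% in WT MEF without the 7 regions set apart. Between WT ESC and WT MEF, 144 regions carried H3K4me3 only in WT ESC, 14 only in WT MEF and 22 in both. The log2 ratio of the 2 one-sided counts, each increased by 1, was 3.27 (exact 95% binomial interval 2.50 to 4.15), and 4.18 without the 7 regions set apart. For peak centres within 500 bp the one-sided counts were 70 and 22 and the ratio 1.63. Across all WT MEF H3K27me3 peaks, 21.4% carried H3K4me3 only in WT ESC and 1.89% only in WT MEF.

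**Figure D1:**
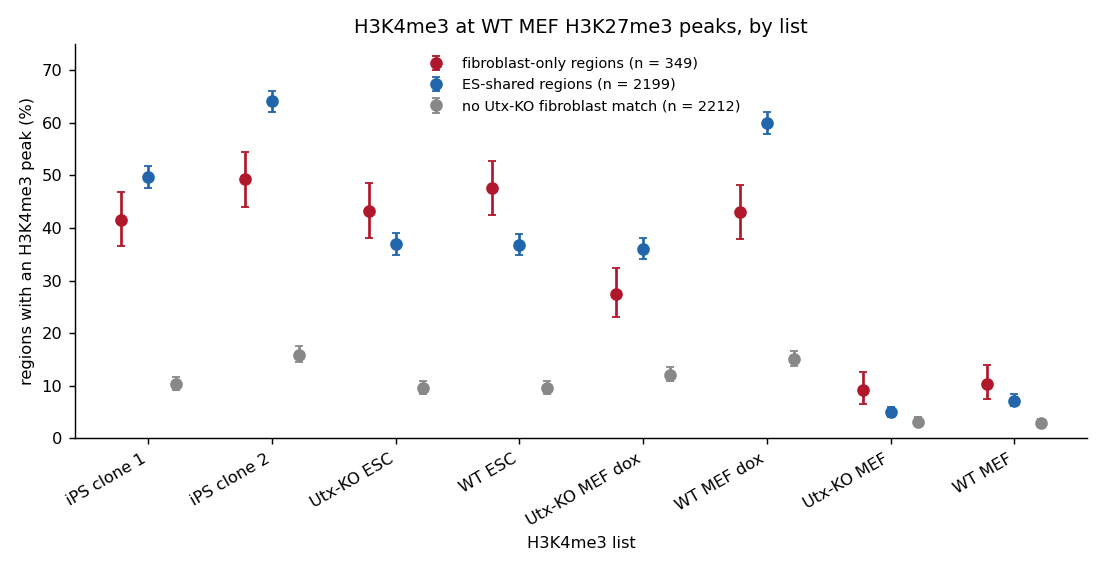
Share of regions (%) with an H3K4me3 peak in each of the 8 lists, for fibroblast-only regions, ES-shared regions and WT MEF peaks without a Utx-KO fibroblast match; bars are 95% Wilson intervals over regions. Fibroblast-only regions lie above ES-shared regions in both ESC lists (47.6 and 36.8% in WT ESC) and below them in the iPS lists and with dox (43.0 and 60.0% in dox-treated WT MEF).

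ES-shared regions differed from this in a list-dependent way. In WT ESC the share was 47.6% of fibroblast-only regions and 36.8% of ES-shared regions, a difference of 10.8 percentage points (interval 5.20 to 16.4). The difference in Utx-KO ESC was 6.34 points (0.851 to 11.9). At 1 bp overlap it ran the other way in the iPS clones and with dox, at -8.07 points in clone 1, -14.8 in clone 2, -8.55 in dox-treated Utx-KO MEF and -17.0 in dox-treated WT MEF. These differences depended on the setting. In the iPS clones the mean of -11.4 points became 0.364 at an overlap of 50% of the shorter peak and 7.78 over the 122 regions met by both Utx-KO fibroblast lists, where dox-treated WT MEF stood at -1.94 points (-11.2 to 6.62). The excess in WT ESC changed as well. Counted over domains in place of regions it was -9.36 points (49.4% of 237 fibroblast-only domains against 58.7% of 1003 ES-shared domains), with an H3K4me3 peak centre required within 500 bp of the region it was 1.29 points, and over the 122 regions met by both Utx-KO fibroblast lists it was 32.6 points (71.3 against 38.8%).

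In the iPS clones and in ESC, the H3K4me3 peaks on fibroblast-only regions ranked above the middle of their lists. Their median score percentile was 55.4 in clone 1 and 65.0 in clone 2, against 48.4 and 56.5 for peaks meeting ES-shared regions. The 122 H3K4me3 peaks of Utx-KO ESC that met these regions had a median score percentile of 65.2 within their own list, and the 131 peaks of WT ESC had one of 57.0. Peaks meeting ES-shared regions ranked lower, at 36.3 in Utx-KO ESC and 35.4 in WT ESC. Those on fibroblast-only regions were also wider in WT ESC, with a median of 2554 bp against 2099 bp for the list and 1814 bp for peaks meeting ES-shared regions. With dox the peaks stood at the 29.8th percentile in Utx-KO MEF and the 46.8th in WT MEF, and in untreated cells at the 29.2nd in Utx-KO MEF and the 25.6th in WT MEF. Percentiles place a peak within its list and do not compare strength between lists.

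**Figure D2:**
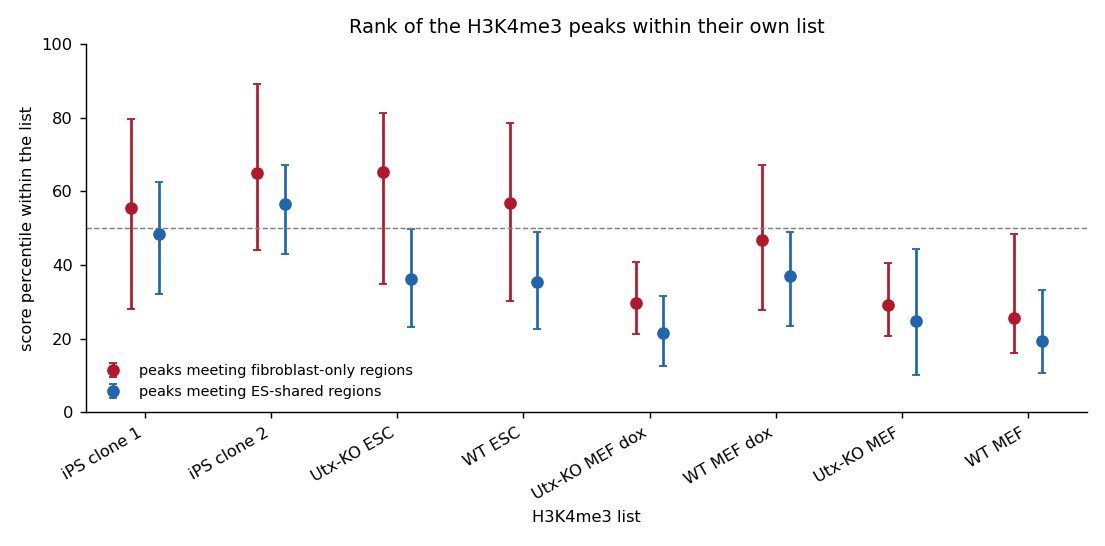
Score percentile, within its own list, of each H3K4me3 peak that met a fibroblast-only or an ES-shared region; points are medians, bars the quartiles, and the dashed line marks the middle of the list. Medians for fibroblast-only regions exceed those for ES-shared regions in all 8 lists, by the widest margin in ESC (65.2 and 36.3 in Utx-KO ESC).

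Among the regions with high H3K27me3 scores in WT MEF, some had H3K4me3 peaks of high score in other states. On chromosome 8 from 91562830 to 91564904, WT MEF had an H3K27me3 score of 576, and H3K4me3 had a score of 3100 in iPS clones 1 and 2, Utx-KO ESC, WT ESC and dox-treated WT MEF. No H3K4me3 was listed there in dox-treated Utx-KO MEF or in untreated fibroblasts of either genotype, while H3K27me3 had scores of 319 in dox-treated Utx-KO MEF and 296 in Utx-KO MEF. A region on chromosome 15 from 39026792 to 39028299 (H3K27me3 625 in WT MEF) had H3K4me3 scores of 998 and 3100 in iPS clones 1 and 2, 3100 in Utx-KO ESC, 2433 in WT ESC and 3121 in dox-treated WT MEF. It too was without an H3K4me3 peak in dox-treated Utx-KO MEF and in untreated cells. The score 3100 recurred across lists and regions, so equal values do not show equal strength.

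Others were marked more weakly. On chromosome 14 from 49272649 to 49275050 (H3K27me3 580 in WT MEF), H3K4me3 scores were 144 and 354 in iPS clones 1 and 2, 54.8 in Utx-KO ESC, 87.0 in WT ESC and 183 in dox-treated WT MEF, and a UTX peak of score 108 lay there in WT ESC. The neighbouring regions on chromosome 6 from 83664442 to 83666498 and from 83667640 to 83669870 shared 1 H3K27me3 peak of score 464 in dox-treated Utx-KO MEF, yet only the first carried H3K4me3. Its scores were 242 and 358 in iPS clones 1 and 2, 220 in Utx-KO ESC, 142 in WT ESC and 110 in dox-treated WT MEF.

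The aberrant iPS clones carried H3K4me3 at most of the regions that carried it in ESC. It was found at 145 regions in clone 1 (41.5%, interval 36.5 to 46.8; background 30.8%) and at 172 in clone 2 (49.3%, 44.1 to 54.5; background 40.6%), a mean of 45.4 ± 5.47% (SD, n = 2 clones). Of the 140 regions with H3K4me3 in both ESC lists, clone 1 carried it at 119 (85.0%), clone 2 at 132 (94.3%) and neither clone at 6. Both clones carried it at 117 of the 140 (83.6%). Over all WT MEF H3K27me3 peaks they did so at 881 of the 973 with H3K4me3 in both ESC lists, a higher share. Of the 166 regions with H3K4me3 in WT ESC, clone 1 carried it at 78.9% and clone 2 at 90.4%. These shares were below those of all WT MEF H3K27me3 peaks with WT ESC H3K4me3, at 85.7% in clone 1 and 96.3% in clone 2. All 4 ESC and iPS lists shared 117 regions (33.5%, against 18.5% of all WT MEF H3K27me3 peaks). Relative to WT ESC, clone 1 had 14 regions of its own and lacked 35, and clone 2 had 22 of its own and lacked 16, against 9.39% and 3.57% of all WT MEF H3K27me3 peaks for clone 1 and 16.6% and 0.924% for clone 2. The log2 ratios were -1.26 (-2.24 to -0.36) and 0.44 (-0.53 to 1.43), with a mean of -0.41 ± 1.20 (SD, n = 2). The clones differed in sign here, and their mean was smaller than their spread, but this rested on the setting. Both were negative with equal numbers of top peaks (-2.23 in clone 1 and -0.56 in clone 2) and with no ESC peak within 5 kb (-1.29 and -0.70), and both were positive for peak centres within 500 bp (1.14 and 0.96). Set against Utx-KO MEF, clone 1 had 121 regions of its own and lacked 8 (log2 ratio 3.76, 2.79 to 4.92), where the shares of all peaks were 27.3% and 0.966%. Clone 2 had 151 and lacked 11 (3.66, 2.82 to 4.65), where the shares were 36.8% and 0.672%. Without the 7 regions set apart, the values for clones 1 and 2 were -1.71 and 0.44 against WT ESC, and 4.35 and 4.93 against Utx-KO MEF. Peak centres within 500 bp gave 2.73 for clone 1 and 2.03 for clone 2 against Utx-KO MEF.

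Fewer regions carried H3K4me3 in Utx-KO ESC than in WT ESC. Only Utx-KO ESC carried H3K4me3 at 11 regions, only WT ESC at 26 and both at 140 (log2 ratio -1.17, interval -2.29 to -0.14, and -1.58 without the 7 regions). Over all WT MEF H3K27me3 peaks the one-sided shares were close, 4.22% only in Utx-KO ESC and 4.50% only in WT ESC. The interval held 0 at a score of at least 100 (-0.49, -1.55 to 0.54), at an overlap of 50% of the shorter peak (-0.82, -1.93 to 0.22), with equal numbers of top peaks (-0.94, -2.08 to 0.13), over domains (-1.15, -2.47 to 0.048) and with no ESC peak within 5 kb (-0.42, -1.84 to 0.96). It changed sign, to 0.17, when an H3K4me3 peak centre within 500 bp was required.

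With dox, WT fibroblasts carried H3K4me3 at 150 of the 349 regions (43.0%, interval 37.9 to 48.2), against 37.9% of all WT MEF H3K27me3 peaks. The mark was found at 127 regions only with dox, at 13 only without it and at 23 in both, a log2 ratio of 3.19 (2.39 to 4.10). Of the 13 regions with H3K4me3 only in untreated WT MEF, 7 were those set apart above. Without them the counts were 127 and 6 and the log2 ratio was 4.19, while peak centres within 500 bp gave 69 and 20 and a ratio of 1.74. The one-sided shares over all WT MEF H3K27me3 peaks were 33.0% only with dox and 0.525% only without.

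In Utx-KO fibroblasts H3K4me3 with dox was found at fewer regions than in WT fibroblasts. It was found at 96 (27.5%, interval 23.1 to 32.4; background 24.3%), of which 75 were seen only with dox, while 11 were seen only without it and 21 in both. The log2 ratio was 2.66 (1.78 to 3.68), and 3.93 without the 7 regions. Peak centres within 500 bp gave 38 regions only with dox and 18 only without, a ratio of 1.04. Over all WT MEF H3K27me3 peaks, 20.3% carried the mark only with dox and 0.378% only without.

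**Figure D3:**
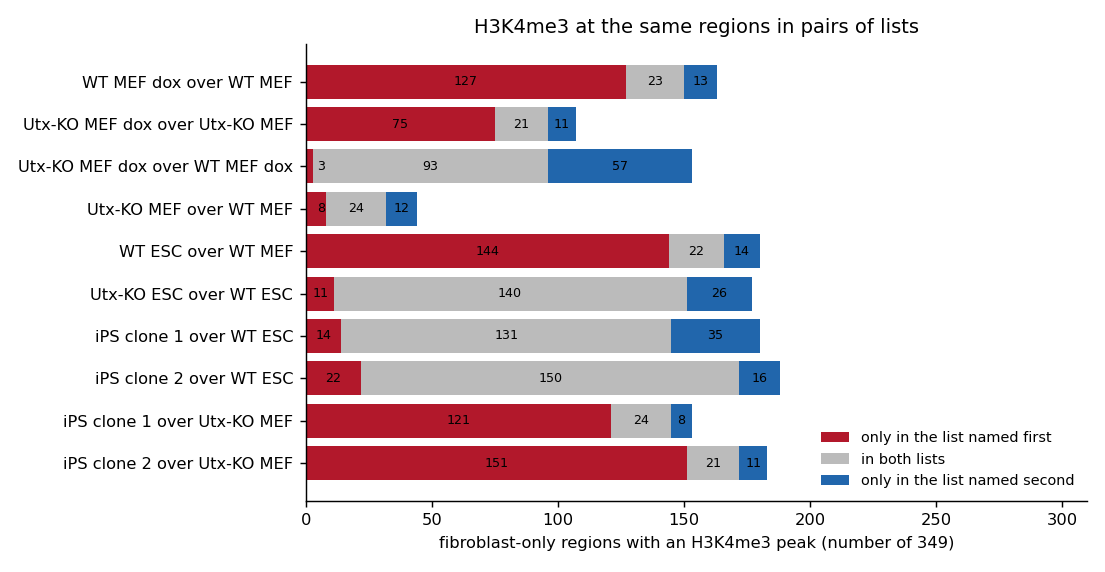
Number of fibroblast-only regions (of 349) with H3K4me3 only in the list named first, in both lists and only in the list named second, for 10 pairs of lists. With dox, 3 regions were marked only in Utx-KO MEF and 57 only in WT MEF, while without dox 8 were marked only in Utx-KO MEF and 12 only in WT MEF.

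Set against each other with dox, fewer regions carried H3K4me3 in Utx-KO MEF than in WT MEF. H3K4me3 was found at 3 regions only in dox-treated Utx-KO MEF, at 57 only in dox-treated WT MEF and at 93 in both, a log2 ratio of -3.86 (interval -5.78 to -2.42). The same direction held over all WT MEF H3K27me3 peaks, where 2.14% were marked only in dox-treated Utx-KO MEF and 15.7% only in dox-treated WT MEF, and in ES-shared regions, where 47 and 573 regions gave -3.58 (-4.04 to -3.15). Taking the 16157 top-scoring H3K4me3 peaks of every list gave -3.04 for fibroblast-only regions, and peak centres within 500 bp gave -1.47, with 16 regions only in dox-treated Utx-KO MEF and 46 only in dox-treated WT MEF. Without dox, 8 regions were marked only in Utx-KO MEF, 12 only in WT MEF and 24 in both (log2 ratio -0.53, -1.94 to 0.81), against 2.00% and 2.98% of all peaks. The H3K4me3 list of dox-treated Utx-KO MEF was the shortest in number but covered 52.8 Mb, against 52.0 Mb in dox-treated WT MEF. With dox, the regions marked in either genotype lay mostly among those with H3K27me3 in dox-treated Utx-KO MEF, a list used in the choice. Of those 223 regions, 126 carried H3K4me3 in dox-treated WT MEF and 78 in dox-treated Utx-KO MEF. Of the other 126 regions, met only by untreated Utx-KO MEF, 24 and 18 carried it. Over all WT MEF H3K27me3 peaks the counts were 1372 and 821 of 2197 with that peak, and 431 and 336 of 2563 without. The effect of the choice was not tested.

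The 57 regions marked only in dox-treated WT MEF were mostly regions with H3K4me3 in pluripotent cells. Of these, 36 carried it in iPS clone 1 (63.2%), 48 in clone 2 (84.2%), 36 in Utx-KO ESC (63.2%) and 43 in WT ESC (75.4%), and none in untreated fibroblasts. The 93 regions marked in both genotypes carried it more often, at 89.2% in clone 1 and 98.9% in clone 2. Their shares were 88.2% in Utx-KO ESC and 93.5% in WT ESC. H3K27me3 of dox-treated Utx-KO MEF met 50 of the 57 (87.7%) and 76 of the 93 regions marked in both genotypes (81.7%), a list that the choice of regions had used. Over all WT MEF H3K27me3 peaks, 748 were marked only in dox-treated WT MEF and 1055 in both genotypes with dox. The shares above were not counted for those peaks, so they cannot be called particular to fibroblast-only regions. Of the 57, the 5 with the highest H3K27me3 scores included those on chromosomes 8, 15 and 14 given above. Also among them were 1 on chromosome 4, at 99323620 to 99326883, and 1 on chromosome 13, at 22104003 to 22106033.

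On chromosome 4 the H3K27me3 score was 655 in dox-treated Utx-KO MEF, 52.5 in dox-treated WT MEF, 511 in Utx-KO MEF and 703 in WT MEF. H3K4me3 scores there were 2106 and 3100 in iPS clones 1 and 2, 2585 in Utx-KO ESC, 2142 in WT ESC and 865 in dox-treated WT MEF. The region on chromosome 13 had H3K4me3 only in iPS clone 2 (314) and dox-treated WT MEF (529), and none in ESC.

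The reverse class held 3 regions. Chromosome 3 from 86348247 to 86349366 had H3K4me3 at a score of 3100 in dox-treated Utx-KO MEF and in no other list. That peak was 14756 bp wide, against 1120 bp for the region, so its score is not one for the region alone. Chromosome 5 from 75972517 to 75973280 (342 in dox-treated Utx-KO MEF) also carried it in all 4 ESC and iPS lists, as did the region at 51858935 to 51859585 of chromosome 7 (85.8). The regions on chromosomes 5 and 7 each met a UTX peak of WT ESC, with scores of 61.4 on chromosome 5 and 61.8 on chromosome 7.

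H3K4me3 with dox lay largely on regions that had the mark in ESC. Of the 166 regions with H3K4me3 in WT ESC, 89 carried it in dox-treated Utx-KO MEF (53.6%, interval 46.0 to 61.0) and 130 in dox-treated WT MEF (78.3%, 71.4 to 83.9). Of the 183 regions without it in WT ESC, 7 carried it in dox-treated Utx-KO MEF (3.83%) and 20 in dox-treated WT MEF (10.9%, 7.19 to 16.3). The shares over all WT MEF H3K27me3 peaks were higher throughout, at 61.8% in dox-treated Utx-KO MEF and 88.2% in dox-treated WT MEF of those with WT ESC H3K4me3, and at 11.9% and 21.2% of those without. Counted as one-sided differences from WT ESC, 7 regions were marked only in dox-treated Utx-KO MEF and 77 only in WT ESC (log2 ratio -3.29, -4.55 to -2.24), against 8.91% and 9.54% of all WT MEF H3K27me3 peaks. For dox-treated WT MEF the counts were 20 and 36 (-0.82, -1.66 to -0.0068), against 15.9% and 2.94%, and the ratio changed sign over domains (0.30). ES-shared regions were less divided, with WT MEF dox H3K4me3 at 91.8% of those with and 41.4% of those without the mark in WT ESC. Of the 16 fibroblast-only regions marked in dox-treated WT MEF and in no ESC list, 4 carried H3K4me3 in clone 1 and 8 in clone 2. The same class was not counted over all WT MEF H3K27me3 peaks.

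Read across all 8 lists, the regions fell into few large groups. No H3K4me3 list met 140 regions (40.1%, against 52.0% of all WT MEF H3K27me3 peaks). The most frequent marked pattern, with 49 regions, was H3K4me3 in all ESC, iPS and dox lists and in no untreated fibroblasts. A further 27 regions had the same pattern without dox-treated Utx-KO MEF, 12 had the ESC and iPS lists alone, and 11 carried H3K4me3 in all 8 lists. An untreated fibroblast list marked 44 regions (12.6%), of which 6 were marked in no other state. Without the 7 regions set apart these were 37 (10.8%) and 3. Apart from the unmarked group, these groups were not counted over all WT MEF H3K27me3 peaks. They therefore cannot be called particular to fibroblast-only regions.

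**Figure D4:**
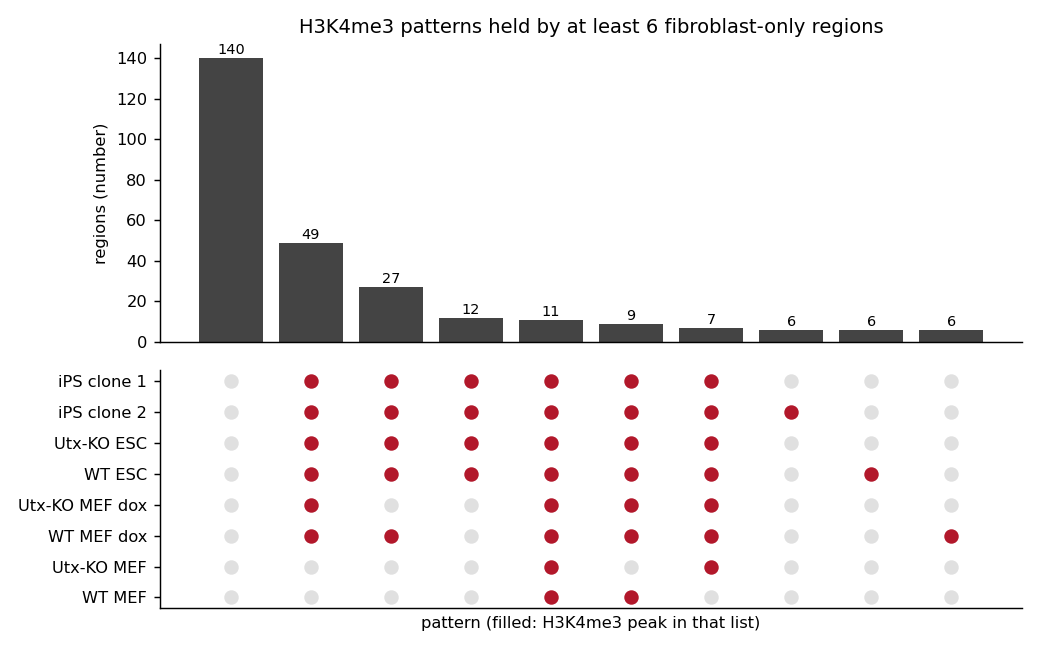
Number of fibroblast-only regions with each combination of H3K4me3 lists, for the 10 combinations held by at least 6 regions; a filled dot marks a list with a peak. The unmarked group holds 140 regions, and the next 2 groups, with 49 and 27 regions, differ only in dox-treated Utx-KO MEF.

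The unmarked regions included some with high H3K27me3 scores. Chromosome 13 from 78310816 to 78314417 scored 618 in WT MEF and 157 in Utx-KO MEF. Of the other 4 among the 5 highest, 1 was the second region on chromosome 6 given above (595). The next scored 455, on chromosome 12 from 50497784 to 50499401. Chromosome 6 held the one that scored 404, from 51138942 to 51140466, and chromosome 9 the one that scored 381, from 91286353 to 91287408. H3K4me3 was often near without touching them, since 65 of the 140 (46.4%) had a WT ESC H3K4me3 peak within 5 kb and 68 (48.6%) one of dox-treated WT MEF, against 23 (16.4%) with one of untreated WT MEF. Such distances were not counted for the unmarked peaks among all WT MEF H3K27me3 peaks.

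The regions also differed among themselves by the lists that admitted them. WT ESC carried H3K4me3 at 71.3% (interval 62.7 to 78.6) of the 122 regions met by both Utx-KO fibroblast lists, at 55.4% (45.7 to 64.8) of the 101 met only by dox-treated Utx-KO MEF and at 18.3% (12.5 to 25.9) of the 126 met only by untreated Utx-KO MEF. The order was the same in dox-treated WT MEF, at 62.3, 49.5 and 19.0%. Over all WT MEF H3K27me3 peaks the same 3 groups had WT ESC H3K4me3 at 41.7, 41.8 and 16.2%, and that of dox-treated WT MEF at 64.1, 60.0 and 27.6%. In untreated WT MEF, H3K4me3 was at 15.1% of the regions met only by untreated Utx-KO MEF, which include all 7 set apart. Without those it was at 10.1%, against 7.38% of the regions met by both lists and 7.92% of those met only with dox. Median widths were 1055 bp in the regions met by both lists, 836 bp in those met only with dox and 837 bp in those met only without.

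Distance from ESC H3K27me3 separated them as well. The 165 regions with ESC H3K27me3 within 5 kb carried H3K4me3 at 36.4% (29.4 to 43.9) in WT ESC, the 42 with it on both sides at 26.2% (15.3 to 41.1), and the 184 with none within 5 kb at 57.6% (50.4 to 64.5). By the H3K27me3 score in WT MEF the division was slight, with WT ESC H3K4me3 at 44.8% of the 116 regions with the lowest scores, 45.7% of the middle 116 and 52.1% of the 117 with the highest. Neither the division by distance nor that by score was counted over all WT MEF H3K27me3 peaks.

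H3K27me3 itself was rarely listed at these regions in the states the choice did not use. In dox-treated WT MEF it was at 13 regions (3.72%, interval 2.19 to 6.27; background 4.56%), with scores of 52.5 to 105 and a median of 55.3, near the lowest score of 50 in the lists. Of the 13, 8 carried H3K4me3 in the same state (61.5%). This was near the share of all WT MEF H3K27me3 peaks with H3K27me3 in dox-treated WT MEF (129 of 217, 59.4%). iPS clone 1 had it at 0 of 349, where 3 counts, the floor that a count of 0 allows, would be 0.860% and the Wilson upper bound is 1.09% (background 0.021%), and clone 2 at 7 (2.01%, 0.975 to 4.08; background 0.462%), of which 4 were among the regions set apart. These 3 lists were short, so absence of the mark and low sensitivity cannot be told apart. Of the regions with H3K27me3 in dox-treated WT MEF or in a clone, the next in WT MEF score after those already named was on chromosome 4 from 150513414 to 150514997, with 91.1 in dox-treated WT MEF and 342 in WT MEF.

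UTX was listed in WT ESC at 32 regions (9.17%, interval 6.57 to 12.7), against 0.591% of ES-shared regions (13 of 2199) and 1.39% of all WT MEF H3K27me3 peaks. Without the 7 regions set apart it was at 26 of 342 (7.60%). The UTX scores at the 32 regions ran from 52.7 to 421 with a median of 78.7, against a median of 73.8 for the whole list, and at a score of at least 100 the share was 3.15%. Within the regions, UTX was at 16 of 166 with WT ESC H3K4me3 (9.64%) and 16 of 183 without it (8.74%). Over all WT MEF H3K27me3 peaks these shares were 2.44 and 1.04%. Among the 131 WT ESC H3K4me3 peaks that met fibroblast-only regions, 24 met a UTX peak anywhere along their length (18.3%, 12.6 to 25.8). The shares were 1.51% (10 of 664) of those that met ES-shared regions and 6.63% of all 19468. Peaks meeting fibroblast-only regions were wider. Among peaks of 1773 to 3880 bp the shares were 10.8% (7 of 65, 5.32 to 20.6), 2.74% (9 of 329) and 5.88% of all 10260, so the interval for fibroblast-only regions then held the share of all peaks. In fibroblasts UTX was at 1 region with dox (0.287%; background 0.273%) and at the 7 set apart without dox.

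The domains with most regions showed the marks over longer stretches. The first joined 18 regions on chromosome 15 from 102736727 to 102777405. H3K4me3 peaks covered 9.90 kb of it in iPS clone 1, 15.8 kb in clone 2, 17.6 kb in Utx-KO ESC, 16.7 kb in WT ESC and 3.60 kb in dox-treated WT MEF, and none of it in dox-treated Utx-KO MEF or in untreated fibroblasts. H3K27me3 peaks covered 19.8 kb in dox-treated Utx-KO MEF, 0.604 kb in dox-treated WT MEF, 15.2 kb in Utx-KO MEF and 24.4 kb in WT MEF. The domain also held 1 WT ESC H3K27me3 peak of 0.752 kb between the chosen regions. Just past its end, at 20.3 kb from the centre, Utx-KO ESC had H3K27me3 peaks from 20.9 to 33.6 kb and from 33.8 to 58.3 kb.

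In the domain of 10 regions on chromosome 3 from 34543091 to 34570738, dox came with similar H3K4me3 in both genotypes. H3K4me3 covered 11.2 and 13.2 kb in iPS clones 1 and 2, 14.4 kb in Utx-KO ESC, 15.4 kb in WT ESC, 7.12 kb in dox-treated Utx-KO MEF, 6.96 kb in dox-treated WT MEF, 0.965 kb in Utx-KO MEF and none in WT MEF. H3K27me3 peaks of dox-treated Utx-KO MEF lay along this domain as well, among them a peak from 3.40 to 7.74 kb from its centre. In dox-treated WT MEF the only H3K27me3 peak inside the domain ran from -6.22 to -5.64 kb. The domain also held 3 UTX peaks of WT ESC.

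**Figure D5:**
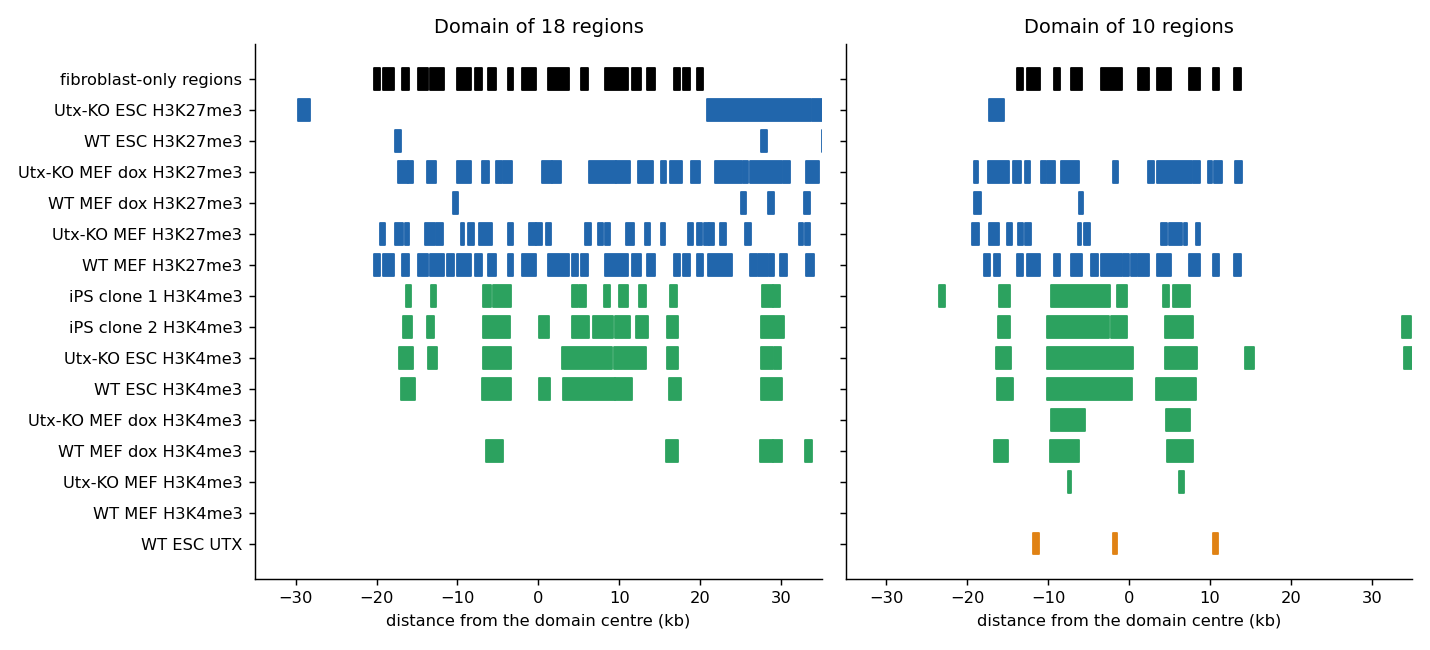
Peaks of H3K27me3, H3K4me3 and UTX around the domains with 18 and 10 fibroblast-only regions, by distance (kb) from the domain centre. In the domain of 18 no H3K4me3 peak is listed in dox-treated Utx-KO MEF, against 3.60 kb in dox-treated WT MEF, while in the domain of 10 both genotypes have H3K4me3 with dox (7.12 kb in Utx-KO MEF and 6.96 kb in WT MEF).

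The next 3 domains also differed in H3K4me3 between the genotypes with dox. On chromosome 6 from 30122114 to 30131296 (7 regions), H3K4me3 covered 4.72 kb in dox-treated Utx-KO MEF and 6.56 kb in dox-treated WT MEF. On chromosome 4 from 99315648 to 99328074 (6 regions) none was listed in dox-treated Utx-KO MEF and 6.53 kb in dox-treated WT MEF. On chromosome 18 from 81172443 to 81182788 (6 regions) none was listed in dox-treated Utx-KO MEF and 1.63 kb in dox-treated WT MEF. WT ESC had 6.19 kb on chromosome 6, 9.63 kb on chromosome 4 and 3.68 kb on chromosome 18.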

How the data were processed

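ChIP-seq peak lists of 19 immunoprecipitated samples were used. Another 8 samples, whole-cell extracts, were not analysed here. For each sample the authors deposited 1 list of peaks with position and a score, whose values behave like a MACS peak score. The submitters' processing notes list Bowtie 0.12.5, MACS 1.4.1, CASAVA 1.8.2 and the build mm9. Settings, controls and read depth are not given in the sources used here. Because it depends on depth, the score served to describe and rank peaks within a list.

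Positions are 1-based mm9. Gene positions at hand were of another build and were not used, so no gene is named and the gene lists drawn up for the study were not analysed here. 1 mitochondrial peak was left out. The regions, lists and classes were chosen with earlier results of these data known. The H3K27me3 lists of WT MEF, Utx-KO MEF with and without dox and both ESC chose the regions, so these values are descriptions.

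Overlap meant at least 1 bp. A pair of lists was compared by log2((only first + 1)/(only second + 1)) with an exact 95% Clopper-Pearson interval. Shares have Wilson intervals, and differences of shares combine both. With 1 library per state there was no test between states. Intervals cover counting error only. Regions named were the 10 with the highest WT MEF H3K27me3 score, the 5 highest in each class of marks, and the 5 domains with most regions. The 7 regions with WT MEF UTX were named after their values were seen.

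Alternatives were a score of at least 100, overlap of 50% of the shorter peak, the same number of top peaks, an H3K4me3 peak centre within 500 bp, domains at gaps up to 5 kb, no ESC peak within 5 kb, both Utx-KO fibroblast lists, autosomes only, and each clone alone. Counts and intervals were tested on simulated regions with planted overlaps. The software was matplotlib 3.10.9, pandas 2.3.3 and scipy 1.17.1 under Python 3.11.15.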

Additional observations from a re-analysis of the deposited data

How the results depend on the processing

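The greater number of H3K4me3 regions with dox and in WT ESC than in untreated cells, and the smaller number in Utx-KO MEF with dox than in WT MEF with dox, kept their direction under each alternative that was run. Of the 94 main values under alternatives, 9 were opposite in sign to the value reported, as were 5 values of secondary comparisons. With an H3K4me3 peak centre required within 500 bp, the log2 ratios were 1.74 for WT MEF dox over WT MEF, 1.04 for Utx-KO MEF dox over Utx-KO MEF, -1.47 for Utx-KO MEF dox over WT MEF dox, 1.63 for WT ESC over WT MEF, 0.17 for Utx-KO ESC over WT ESC (changed sign), 1.05 for the mean of the iPS clones over WT ESC and 1.14 for clone 1 alone (both changed sign). That mean, -0.41 as reported, was also positive at a score of at least 100 (0.48) and over domains (0.21). Clone 2 over WT ESC, 0.44 as reported, was -0.56 with equal numbers of top peaks and -0.70 with no ESC peak within 5 kb. WT MEF dox over WT ESC, -0.82 as reported, changed sign to 0.044 for peak centres within 500 bp and to 0.30 over domains. For peak centres within 500 bp, the share differences between fibroblast-only and ES-shared regions were 1.29 points in WT ESC and -11.2 in WT MEF dox. An overlap of 50% of the shorter peak gave -10.7 points in WT MEF dox and 0.364 for the iPS clones (changed sign). Over domains the differences were -9.36 points in WT ESC (changed sign), -26.7 in WT MEF dox and -27.1 in the iPS clones. With no ESC peak within 5 kb, which left 184 regions, they were 20.8 points in WT ESC and -4.13 in the iPS clones. With both Utx-KO fibroblast lists required, which left 122 regions, they were 32.6 points in WT ESC, -1.94 in WT MEF dox and 7.78 in the iPS clones (changed sign), and the log2 ratios were 6.09 for WT MEF dox over WT MEF, 5.46 for Utx-KO MEF dox over Utx-KO MEF and 6.30 for WT ESC over WT MEF. No region was then marked only in untreated cells, so these 3 values rest on the added 1. Without the 7 regions with UTX in WT MEF, an alternative chosen after seeing the data, those 3 ratios were 4.19, 3.93 and 4.18. Leaving out either clone gave -1.26 to 0.44 for the iPS clones over WT ESC and -14.8 to -8.07 points for their share difference. Utx-KO MEF over WT MEF, whose interval held 0, changed sign to 0.53 at a score of at least 100. The causes of these shifts were not tested. Unknown read depth limits every absence of a peak, most of all in the short H3K27me3 lists. No paired analysis was possible because each state and mark had 1 library, apart from the iPS clones, and the comparisons come from no test.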
